A study of Mus musculus with 12 samples.

Results

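Kidney expression of 10 genes that handle vitamin D, calcium and phosphate was compared in mice with and without diabetes and with and without the chemokine receptor D6. The genes were chosen by name: Cyp27b1, Cyp24a1, Vdr, Casr, Kl, Pth1r, Trpv5, Calb1, Slc34a1 and Slc34a3. A gene was measured by the probe set annotated to its symbol alone, and by the probe set with the highest mean where there were several. Of the 10 genes, 9 had such a probe set, 1 each, among 19936 genes in all. All 9 passed the filter on low values, as did 16480 genes of the whole table. Cyp24a1, the enzyme that inactivates vitamin D, was not analysed here. The values came from 12 arrays of whole-kidney RNA, 1 array per mouse, with 3 mice in each of 4 groups, all 6 months old and on the FVB strain. The labels count each array as its own mouse. FVB mice had no diabetes and intact D6. D6 mice had no diabetes and were homozygous knockouts for D6, the product of Ackr2. OVE mice were diabetic with intact D6, and OVE-D6 mice were diabetic and homozygous for the D6 deletion. The OVE line is known as OVE26, in which a calmodulin transgene driven by an insulin promoter damages the insulin-producing beta cells of the pancreas. The deletion was made on C57BL/6 and bred to FVB for at least 10 generations, and the knockout is carried by every cell of the animal.

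The kidney sets the body's balance of calcium and phosphate. Proximal tubule cells make the active hormone, 1,25-dihydroxyvitamin D, with the 1-alpha-hydroxylase Cyp27b1, and the hormone acts through its nuclear receptor Vdr. Parathyroid hormone, through its receptor Pth1r, favours hormone synthesis and phosphate loss, whereas the bone hormone FGF23, with its co-receptor Klotho (Kl), lowers both hormone synthesis and phosphate uptake. The sodium-phosphate cotransporters Slc34a1 and Slc34a3 take phosphate back in the proximal tubule. The calcium-sensing receptor Casr limits calcium reabsorption in the thick ascending limb, and the channel Trpv5 with the calcium buffer calbindin-D28k (Calb1) carries calcium across the distal convoluted and connecting tubule.

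Promoter sequence was at hand for 8 of the 10 genes, and the sequences are those of RefSeq on build GRCm38.p6. The 250 bases before the annotated start are shown for Cyp27b1 and Casr, the genes whose levels differed most between groups, written 5′ to 3′ on the strand of the gene. The Cyp27b1 window is chr10:127047996-127048245 on the plus strand, and the Casr window is chr16:36562135-36562384 on the minus strand. Capitals mark the one match found, the letters ATTGG, which read CCAAT on the other strand.
Cyp27b1: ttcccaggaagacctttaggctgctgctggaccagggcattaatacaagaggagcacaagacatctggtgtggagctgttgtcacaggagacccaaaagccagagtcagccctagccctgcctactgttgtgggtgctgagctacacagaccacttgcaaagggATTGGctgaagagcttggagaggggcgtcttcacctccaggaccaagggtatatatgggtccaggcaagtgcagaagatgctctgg
Casr: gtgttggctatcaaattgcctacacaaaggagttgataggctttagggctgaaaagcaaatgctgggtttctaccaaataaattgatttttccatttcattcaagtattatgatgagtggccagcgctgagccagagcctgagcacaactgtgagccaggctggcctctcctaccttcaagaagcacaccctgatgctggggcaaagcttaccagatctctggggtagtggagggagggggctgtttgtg
Letters were searched on both strands. The hexamers AGGTCA and GGTTCA of the vitamin D receptor element were searched singly and as any pair with 3 bases between them, so a pair also counts as single hexamers. The cyclic-AMP element TGACGTCA, the AP-1 element TGAGTCA, the box CCAAT, the box TATAAA and the NF-kappaB element were searched as well. In Cyp27b1 the CCAAT letters lay 82 to 86 bases before the start, and 33.8% of 32851 promoters of the same length held them. The Casr window held none of the strings. Of the other windows, that of Slc34a3 held AGGTCA at 2 positions, letters found in 14.0% of promoters, and CCAAT once. A Pth1r window held CCAAT, and that of Trpv5 held TATAAA, letters found in 12.4% of promoters. The windows of Vdr, Kl and Slc34a1 held none of the strings. These matches describe letters in a short window only.

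Some facts of the arrays bear on all that follows. The array medians lay between 6.84 and 6.93. On the first principal component, with 35.9% of the variance, OVE replicate 3 lay at 6.9, the other OVE arrays at 27.0 and 29.4 and the other 9 arrays between -15.1 and 5.2. The mean log2 level of 5 adrenal genes was 8.41 on OVE-D6 replicate 3 and between 5.41 and 5.68 on the other 11 arrays. Results that depend on either array are given with and without it. Markers of proximal tubule, thick ascending limb, distal tubule and collecting duct were well above background on all arrays, with list means of at least 9.63. Their background was taken as 5.93, the 95th percentile of 1027 olfactory receptor genes. Ackr2, the deleted gene, did not separate the libraries labelled as knockout from the rest: its level was 6.74 to 7.04 over the 12 arrays, and the D6 minus FVB difference of -0.10 ± 0.08 did not pass (limma adjusted p = 1.0). Whether its probe set lies in the deleted part is unknown, so it checks no label. In OVE against FVB 1 of 5 podocyte and 2 of 8 collecting duct markers fell by limma, beside 2.38% of all tested genes. Of the 8 collecting duct markers 4 were above 0 and 4 below, and of the 5 podocyte markers 1 was above and 4 below. Of the fat, adrenal and skeletal muscle markers, 0 of 5, 0 of 3 and 0 of 3 passed, beside 7.28%. These last 3 lists had 0 at an unadjusted p under 0.05. The mean log2 level of 5 fat genes varied within groups. It ran from 6.01 to 7.54 in FVB, 6.37 to 6.68 in D6, 6.63 to 7.11 in OVE and 6.15 to 7.43 in OVE-D6. The part of fat in the differences was not tested. The parathyroid gene Pth lay at or below 4.35 on all arrays, under the background of olfactory receptor genes.

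Diabetes with intact D6 was associated with a higher level of the vitamin D-activating enzyme and with lower levels of the calcium sensor and Klotho. In OVE against FVB, 1 of the 9 genes rose (Cyp27b1) and 2 fell (Casr and Kl) at a limma adjusted p under 0.05, where 7.28% of all tested genes passed, 4.9% higher and 2.38% lower. The arrays of the 2 groups did not overlap for 4 of the 9, beside 27.1% of all tested genes. The median log2 difference of the 9 genes was -0.12, beside -0.02 over all tested genes. In OVE-D6 against D6, the same contrast in knockouts, 1 of 9 passed (Casr, lower), beside 0.285% of all tested genes (0.182% higher and 0.103% lower), and 4 of 9 did not overlap, beside 16.4%. With both genotypes averaged, 4 of 9 passed (Cyp27b1 higher, and Casr, Kl and Pth1r lower), beside 7.65% of all tested genes, 4.49% higher and 3.16% lower. The 6 diabetic arrays did not overlap with the 6 others for 2 of the 9, beside 3.42%. With the arrays centred on their medians, the OVE against FVB calls over all genes were 667 higher and 870 lower, in place of 808 and 392, and the calls of the members were the same. The comparison of OVE with FVB and the averaged comparison share arrays, so their counts do not support each other. The levels on each array are plotted first, and the differences with their intervals after them.

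**Figure D1:**
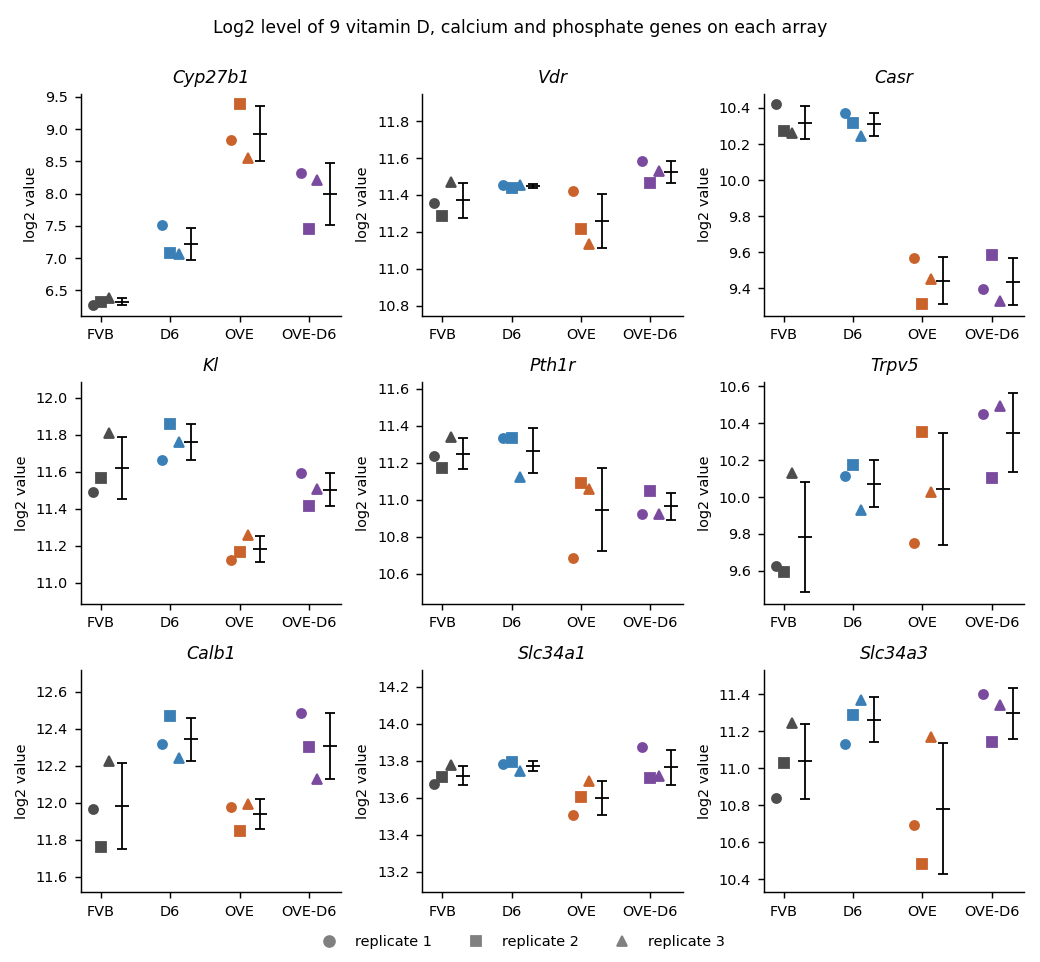
Log2 level (vertical axis) of each of the 9 genes on the 12 arrays, by group, with 1 symbol per replicate. Bars beside the points give the mean and SD of 3 arrays. The 6 diabetic arrays lie below the 6 non-diabetic arrays for Casr, and Cyp27b1 is lowest in FVB and highest in OVE.

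**Figure D2:**
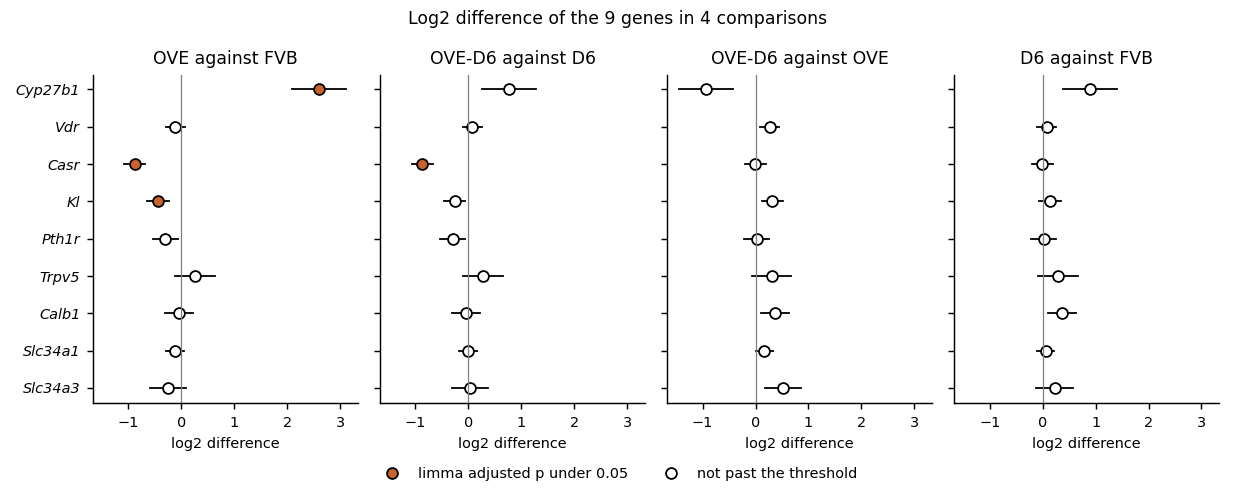
Log2 difference (horizontal axis) of each gene in 4 comparisons, with the 95% confidence interval of the limma fit. Filled points passed an adjusted p of 0.05: Cyp27b1, Casr and Kl in OVE against FVB, and Casr in OVE-D6 against D6.

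Cyp27b1, the enzyme that makes active vitamin D, had log2 values of 6.27, 6.31 and 6.39 on the FVB arrays and 8.84, 9.39 and 8.55 on the OVE arrays. It had 7.51, 7.09 and 7.07 on the D6 arrays and 8.32, 7.44 and 8.21 on the OVE-D6 arrays. All OVE arrays thus lay above every other array, and all FVB arrays below every other. OVE-D6 and D6 overlapped, since OVE-D6 replicate 2 lay below D6 replicate 1. From lowest to highest, the group means were 6.32 ± 0.06 in FVB, 7.22 ± 0.25 in D6, 7.99 ± 0.48 in OVE-D6 and 8.93 ± 0.43 in OVE (SD, n = 3 each). The FVB mean lay close to the background of 5.93.

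Cyp27b1 was 6.08-fold higher in OVE than in FVB (log2 2.60 ± 0.23, SE, n = 3 per group, limma adjusted p = 0.000393). It ranked 3 of 16480 tested genes by p and 4 by the size of the difference. In OVE-D6 against D6 the ratio was 1.71 (log2 0.77 ± 0.23), which did not pass over all genes (adjusted p = 0.245, unadjusted p = 0.00611). Averaged over genotype, the enzyme was 3.22-fold higher with diabetes (log2 1.69 ± 0.17, adjusted p = 0.000253). The difference between the 2 diabetes effects, the interaction, was -1.83 ± 0.33 on the log2 scale (95% interval -2.55 to -1.12). It did not pass over all genes (adjusted p = 0.173, unadjusted p = 0.000113), and 0 of 16480 genes did by limma, with 1647 at an unadjusted p under 0.05. Without OVE replicate 3 the interaction passed (log2 -2.02 ± 0.32, adjusted p = 0.006), as did 377 genes in all. Without OVE-D6 replicate 3, the array with adrenal genes, it was -1.94 ± 0.35 (adjusted p = 0.181).

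Whether D6 genotype was associated with Cyp27b1 was asked in each disease state. In D6 against FVB it was higher on all 3 knockout arrays, by 0.90 ± 0.23 on the log2 scale (ratio 1.86), and ranked 23 of 16480 by p, but it did not pass (adjusted p = 1.0, unadjusted p = 0.00221). In OVE-D6 against OVE it was lower on all 3 knockout arrays, by -0.94 ± 0.23 (1.91-fold lower), and did not pass either (adjusted p = 0.119). Without OVE replicate 3 that difference was -1.12 and passed (adjusted p = 0.0227), as did 668 genes in all, in place of 38 with all arrays.

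Activated macrophages can also express Cyp27b1, and markers of these cells and of tubular injury differed between the same groups. Of 11 tested macrophage and monocyte markers, 10 rose in OVE against FVB by limma, beside 4.9% of all tested genes. In OVE-D6 against D6 0 of 11 passed, beside 0.285%, with 0 at an unadjusted p under 0.05. The mean log2 level of 12 such markers ran from 7.13 to 7.42 in FVB, 7.49 to 7.74 in D6, 7.85 to 8.89 in OVE and 7.35 to 7.64 in OVE-D6. Of 9 tubular injury markers, 7 rose in OVE against FVB, beside the same 4.9%. The mean of the 9 ran from 7.28 to 7.43 in FVB, 7.45 to 7.58 in D6, 8.58 to 9.75 in OVE and 7.49 to 8.14 in OVE-D6. Both marker means were thus highest on the 3 OVE arrays, as Cyp27b1 was. Cd163 was near background in every group, and Krt20, one of the 7 injury genes, was near background in all groups but OVE, so it passed the filter through the OVE arrays. On the OVE arrays 1, 2 and 3, Cyp27b1 at 8.84, 9.39 and 8.55 stood beside macrophage means of 8.89, 8.88 and 7.85 and injury means of 8.58, 9.75 and 8.63. On the OVE-D6 arrays, Cyp27b1 at 8.32, 7.44 and 8.21 stood beside macrophage means of 7.35, 7.46 and 7.64 and injury means of 7.49, 7.55 and 8.14. The part of macrophages or injured tubule in the Cyp27b1 difference was not tested. In whole kidney, more cells of a type and more RNA per cell cannot be told apart, for this and every gene below.

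Casr, the calcium-sensing receptor of the thick ascending limb, was lower in diabetes in both genotypes. Its log2 values were 10.42, 10.27 and 10.26 in FVB and 10.37, 10.31 and 10.24 in D6. They were 9.57, 9.31 and 9.45 in OVE and 9.39, 9.58 and 9.33 in OVE-D6. The highest of the 6 diabetic arrays lay below the lowest of the 6 non-diabetic ones, a separation seen in 3.42% of all tested genes. The drop was 1.83-fold in OVE against FVB (log2 -0.88 ± 0.09, SE, n = 3 per group, limma adjusted p = 0.000573) and 1.83-fold in OVE-D6 against D6 (log2 -0.87 ± 0.09, adjusted p = 0.00147). Averaged over genotype it was -0.87 ± 0.06 (adjusted p = 2.84e-05), and Casr ranked 5 of 16480 by p.

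No effect of D6 on Casr was detectable, with narrow intervals. D6 and FVB differed by -0.01 (95% interval -0.21 to 0.19), OVE-D6 and OVE by -0.01 (-0.20 to 0.19), and the diabetes effects in the 2 genotypes by 0.00 (-0.28 to 0.28). Of 6 other tested markers of the thick ascending limb, 1 fell in OVE against FVB by limma, beside 2.38% of all tested genes. This was the chloride channel subunit gene Bsnd. In OVE-D6 against D6 0 of 6 passed, beside 0.285%, with 1 at an unadjusted p under 0.05. Averaged over genotype 1 of 6 fell, Bsnd again, beside 3.16%. The mean of these markers ran from 11.05 to 11.39 in FVB, 11.09 to 11.19 in D6, 10.85 to 11.08 in OVE and 10.95 to 11.14 in OVE-D6. These ranges overlapped between FVB and OVE and between D6 and OVE-D6. In OVE against FVB 5 of the 6 markers were below 0 and 1 above. In OVE-D6 against D6 3 were below 0 and 3 above. For Bsnd alone, the diabetic arrays at 10.03 to 10.48 lay below all the others at 10.68 to 10.92, the split seen for Casr. The part of the thick ascending limb's share of the kidney in the Casr difference was not tested.

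Kl, which encodes the FGF23 co-receptor Klotho, had 11.49, 11.57 and 11.81 in FVB, 11.12, 11.17 and 11.26 in OVE, 11.67, 11.86 and 11.76 in D6 and 11.59, 11.41 and 11.51 in OVE-D6. The 3 OVE arrays lay below all other arrays, and OVE-D6 overlapped with FVB. Kl fell 1.35-fold in OVE against FVB (log2 -0.44 ± 0.09, SE, n = 3 per group, limma adjusted p = 0.0176). This call ended without FVB replicate 3, OVE replicate 1 or OVE replicate 2 (adjusted p = 0.0674, 0.0548 and 0.0638) and in a fit of the 2 groups alone (adjusted p = 0.067). In OVE-D6 against D6 the difference was -0.26 ± 0.09, and in OVE-D6 against OVE it was 0.32 ± 0.09. Neither passed (adjusted p = 0.345 and 0.16), although the groups overlapped in neither case.

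Pth1r, the parathyroid hormone receptor, had 11.24, 11.17 and 11.34 in FVB, 10.69, 11.09 and 11.06 in OVE, 11.34, 11.34 and 11.12 in D6 and 10.92, 11.05 and 10.93 in OVE-D6. All 6 diabetic arrays lay below all 6 non-diabetic ones. Each diabetes effect alone was -0.30 ± 0.11 and did not pass (limma adjusted p = 0.108 in OVE against FVB and 0.343 in OVE-D6 against D6). Averaged over genotype the fall was 1.23-fold (log2 -0.30 ± 0.08, adjusted p = 0.0335). That call ended without FVB replicate 1 or 3, D6 replicate 1 or 2, or OVE-D6 replicate 1 or 3 (adjusted p = 0.0599, 0.0824, 0.0674, 0.0804, 0.0697 and 0.0781). In the averaged comparison 2 of 10 proximal tubule markers fell by limma, beside 3.16% of all tested genes. Of the 10, 6 were below 0 and 4 above, with a median of -0.07, beside -0.01 over all tested genes. Hnf4a fell by 0.20 ± 0.05 and Miox by 0.22 ± 0.06 (adjusted p = 0.0319 and 0.0493), and 4 of the 10 markers had an unadjusted p under 0.05. Their part in the Pth1r difference was not tested. Pth1r lies on chromosome 9, as does Ackr2, with 89 tested genes between them, and its knockout differences were 0.02 ± 0.11 in both disease states.

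Vdr, the vitamin D receptor, did not pass in any comparison. Its values were 11.36, 11.29 and 11.47 in FVB, 11.42, 11.22 and 11.14 in OVE, 11.46, 11.44 and 11.46 in D6 and 11.58, 11.47 and 11.53 in OVE-D6. OVE had the lowest mean and OVE-D6 the highest, and their arrays did not overlap (log2 difference 0.27 ± 0.08, limma adjusted p = 0.181). The diabetes effect averaged over genotype was -0.02 (95% interval -0.15 to 0.11).

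Among the distal calcium carriers, neither Trpv5 nor Calb1 passed in any comparison. Trpv5, the entry channel, had 9.63, 9.59 and 10.13 in FVB, 9.75, 10.35 and 10.03 in OVE, 10.11, 10.17 and 9.93 in D6 and 10.45, 10.10 and 10.49 in OVE-D6. Its groups overlapped in all 4 pairwise comparisons. The log2 differences were 0.26 and 0.28 with diabetes and 0.29 and 0.30 with D6 loss, each ± 0.17 (SE), and these did not pass (limma adjusted p from 0.383 to 1.0).

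Calb1, the calcium buffer, had 11.96, 11.76 and 12.23 in FVB, 12.32, 12.47 and 12.24 in D6, 11.98, 11.85 and 12.00 in OVE and 12.49, 12.30 and 12.13 in OVE-D6. The 3 knockout arrays lay above the 3 wild-type arrays within each disease state. Of 5 tested markers of the distal convoluted and connecting tubule, 5 were above 0 in D6 against FVB (median 0.15). By limma 0 of them passed, beside 0.0121% of all tested genes, with 1 at an unadjusted p under 0.05. In OVE-D6 against OVE 5 of 5 were above 0 as well (median 0.52). There 1 of the markers passed, Pvalb, beside 0.231% of all tested genes, with 4 at an unadjusted p under 0.05. Their part in the Calb1 difference was not tested. The knockout difference was 0.36 ± 0.12 in D6 against FVB and 0.37 ± 0.12 in OVE-D6 against OVE, and neither passed over all genes (limma adjusted p = 1.0 and 0.205, unadjusted p = 0.0116 and 0.0107). With diabetes it differed by -0.04 in both genotypes (95% interval averaged over genotype -0.23 to 0.15).

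The proximal phosphate cotransporters did not pass in any comparison. Slc34a1, the main carrier in mouse kidney, had 13.67, 13.71 and 13.77 in FVB, 13.51, 13.60 and 13.69 in OVE, 13.78, 13.79 and 13.74 in D6 and 13.87, 13.70 and 13.72 in OVE-D6. The largest of its pairwise differences was 0.16 ± 0.07 in OVE-D6 against OVE, where all knockout arrays lay above all OVE arrays (limma adjusted p = 0.328). Slc34a3 had 10.84, 11.03 and 11.24 in FVB, 10.69, 10.48 and 11.17 in OVE, 11.13, 11.29 and 11.37 in D6 and 11.40, 11.14 and 11.34 in OVE-D6. OVE replicate 3 lay apart from the other OVE arrays, within the range of the other groups. Slc34a3 was 0.52 ± 0.16 higher in OVE-D6 than in OVE and did not pass (adjusted p = 0.173). Without OVE replicate 3 that difference was 0.71 and passed (adjusted p = 0.00941), and OVE against FVB was -0.45 and passed too (adjusted p = 0.0448). Both of these Slc34a3 calls rest on the same 2 remaining OVE arrays, so they do not support each other. In that fit 668 of all tested genes passed in OVE-D6 against OVE, in place of 38 with all arrays. In OVE against FVB 1901 passed, in place of 1200. With all arrays, 0 of 10 proximal tubule markers passed in these 2 comparisons by limma. In each, 2 had an unadjusted p under 0.05. The share of all tested genes that passed with all arrays was 0.231% in OVE-D6 against OVE and 7.28% in OVE against FVB.

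Loss of D6 as such gave no call among the 9 genes. In D6 against FVB 0 of 9 passed by limma (2 at an unadjusted p under 0.05), beside 0.0121% of all tested genes, and 2 of 9 did not overlap, beside 9.79%. The median log2 difference was 0.14, beside 0.00 over all tested genes, with 8 of 9 above 0. In OVE-D6 against OVE 0 of 9 passed (6 at an unadjusted p under 0.05), beside 0.231% of all tested genes, and 5 of 9 did not overlap, beside 17.6%. The median there was 0.27, beside 0.01, with 7 of 9 above 0. Without OVE replicate 3, 2 of 9 passed in that comparison, Cyp27b1 lower and Slc34a3 higher. Over all tested genes 668 passed in that fit, in place of 38 with all arrays. In the interaction 0 of 9 passed (1 at an unadjusted p under 0.05, Cyp27b1), beside 0.0% of all tested genes.

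Other genes of the pathway were taken from 5 lists. In OVE against FVB, 4.9% of all tested genes rose and 2.38% fell. In vitamin D metabolism, uptake and receptor partners, 1 of 12 tested genes rose there and 2 fell. The median log2 difference of the 12 was -0.11, beside -0.02 over all tested genes. Cyp27a1, a mitochondrial sterol hydroxylase that can also act on vitamin D, rose by 0.49 ± 0.13 (limma adjusted p = 0.0376). Cyp2r1, the main vitamin D 25-hydroxylase of liver, fell by 0.51 ± 0.11 (adjusted p = 0.0199), and Lrp2, the megalin that takes up filtered vitamin D with its carrier, fell by 0.35 ± 0.08 (adjusted p = 0.0269). In PTH and FGF23 signalling 1 of 10 passed, beside 7.28% of all tested genes, a count near that share. It was Fgfr4, an FGF receptor, which fell (log2 -0.30 ± 0.08, limma adjusted p = 0.0409, lost in 11 of 22 alternatives). Fgfr1, the main Klotho partner for FGF23, differed by 0.05 ± 0.07.

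In distal calcium reabsorption 3 of 9 rose and 2 fell in OVE against FVB, beside 4.9% and 2.38% of all tested genes. Trpv6, the close paralog of Trpv5, rose by 0.45 ± 0.12 (limma adjusted p = 0.0367), from 6.67, 6.55 and 6.81 in FVB to 7.10, 7.18 and 7.09 in OVE. S100g, calbindin-D9k, rose by 0.47 ± 0.13 (adjusted p = 0.0494), a call lost in 16 of 22 alternatives (adjusted p up to 0.162). Anxa2, an annexin that helps bring Trpv5 to the membrane, rose by 0.78 ± 0.18. Pvalb, a calcium buffer of the early distal convoluted tubule, fell by 0.84 ± 0.10 (adjusted p = 0.00155), and the calcium pump gene Atp2b2 fell by 0.36 ± 0.08. Atp2b1, the related pump, differed by -0.03 ± 0.10, and Slc8a1, the sodium-calcium exchanger, by -0.33 ± 0.18. Of the distal convoluted and connecting tubule markers, 5 were tested, Pvalb and Slc8a1 among them. Of these 5, 3 fell in OVE against FVB, beside 2.38% of all tested genes. These were Pvalb, Trpm6 and Slc12a3, which are also counted in this pathway list or the next, so the counts are not separate. Their mean ran from 10.02 to 10.28 in OVE and from 10.54 to 10.99 in the other groups. The part of this segment's share of the kidney in the differences was not tested.

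In paracellular calcium and magnesium handling 3 of 14 fell in OVE against FVB and none rose, beside 2.38% and 4.9% of all tested genes. Egf, whose product stimulates magnesium uptake, fell by 0.69 ± 0.12 (limma adjusted p = 0.0073), the magnesium channel gene Trpm6 by 0.56 ± 0.15 and the sodium chloride cotransporter gene Slc12a3 by 0.38 ± 0.10. The Slc12a3 call was lost in 15 of 22 alternatives (adjusted p up to 0.164) and the Trpm6 call in 10 of 22 (up to 0.148). The claudins on which Casr acts in the thick ascending limb did not pass, with Cldn14 at -0.17 ± 0.07 and Cldn16 at 0.14 ± 0.11. In phosphate transport and mineral inhibitors 2 of 9 rose, beside 4.9% of all tested genes. Slc34a2, the cotransporter of gut and lung epithelium, rose by 1.17 ± 0.17 (2.25-fold, adjusted p = 0.00342), from 7.69, 7.34 and 7.10 in FVB to 8.48, 8.84 and 8.31 in OVE. Slc20a1, a widely expressed phosphate carrier, rose by 0.75 ± 0.19 (adjusted p = 0.0348), and Slc20a2 differed by 0.27 ± 0.09 without passing.

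By limma the same 54 genes gave 0 calls in OVE-D6 against D6 (6 at an unadjusted p under 0.05), beside 0.285% of all tested genes. They gave 0 in D6 against FVB (3 at an unadjusted p under 0.05), beside 0.0121%. The interaction gave 0 as well (6 at an unadjusted p under 0.05), beside 0.0%. In OVE-D6 against OVE only Pvalb passed (log2 0.64 ± 0.10, limma adjusted p = 0.0393), beside 0.0485% of all tested genes that rose, and its call ended in 13 of 22 alternatives (adjusted p up to 0.252). In OVE against FVB 14 of the 54 passed, beside 7.28% of all tested genes. Of these calls 3 held in every alternative tried, those of Pvalb, Egf and Slc34a2. The other 11 were lost in 3 to 16 of 22. With both genotypes averaged there were 12 calls, beside 7.65% of all tested genes. Those of Cyp2r1, Trpv6, Atp2b2, Pvalb, Egf and Slc34a2 held in every alternative. The added call there was Slc41a3, a magnesium transporter gene, at 0.23 ± 0.06 (adjusted p = 0.0429), lost in 14 of 21 alternatives.

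**Figure D3:**
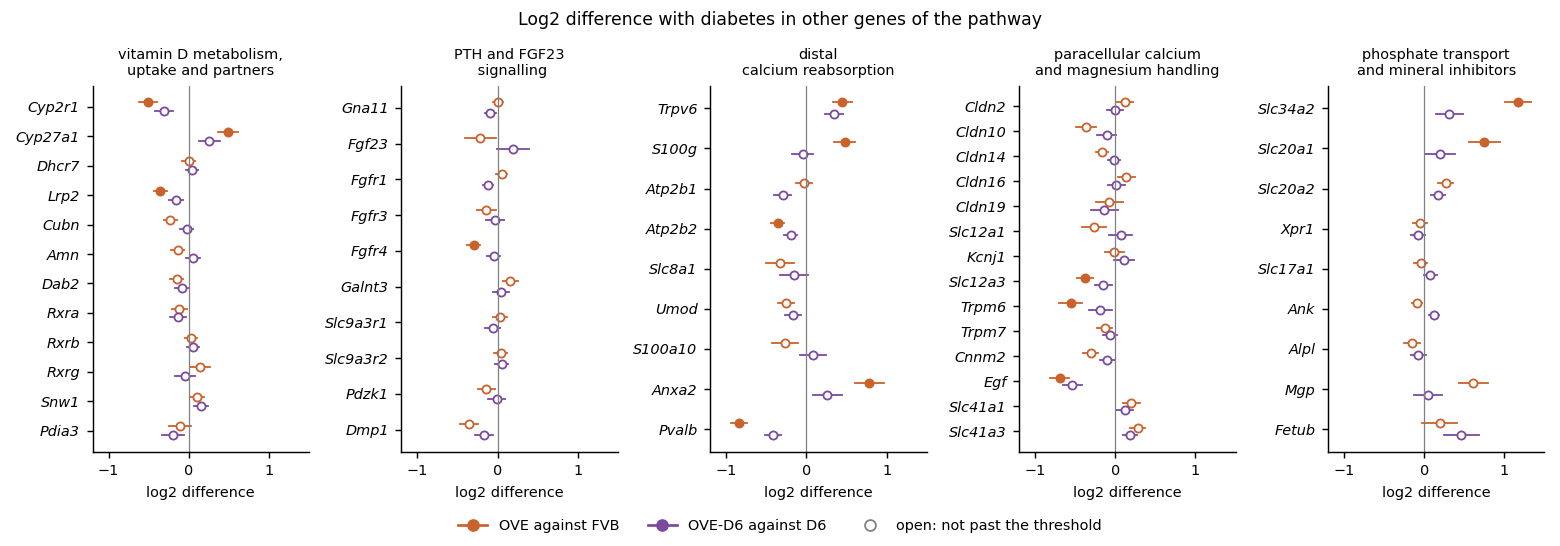
Log2 difference (horizontal axis) with diabetes in intact-D6 mice (OVE against FVB) and in knockouts (OVE-D6 against D6) for the 54 other pathway genes tested, in 5 lists, with bars of 1 SE. Filled points passed a limma adjusted p of 0.05, and all 14 of them are in OVE against FVB. Of all tested genes, 7.28% passed in OVE against FVB and 0.285% in OVE-D6 against D6.

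The profiles over the 12 arrays were set against all other named genes as a description. The arrays share their groups, so a high correlation can come from the group means alone. For Cyp27b1 the most similar genes were Acat3 (Pearson r = 0.97), Slc50a1 (0.97) and Mknk2 (0.97). For Casr they were Slc22a17 (0.96), Ttyh1 (0.95) and Dock8 (0.95). For Kl they were Insrr (0.95), Hhatl (0.95) and Wdfy3 (0.94), and for Pth1r they were Hnf4a (0.97), Gramd4 (0.96) and Pcyox1l (0.95). Acat3 rose from a mean of 7.62 in FVB to 7.85 in D6, 8.09 in OVE-D6 and 8.34 in OVE, the same order of groups as Cyp27b1. Slc22a17 had 8.93 in FVB and 8.91 in D6 against 8.46 in OVE and 8.48 in OVE-D6, the split seen for Casr.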

How the data were processed

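Per the labels' protocols, 100 ng of kidney RNA per mouse, with an integrity number above 8.8 (average 9.1), was made into sense-strand cDNA, labelled and measured on Affymetrix gene arrays of mouse. The deposited values are log2 probe-set summaries. The labels do not state how the authors summarised and normalised them, and they were used as they stand. The number of arrays limits the precision.

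Of 35556 probe sets, 21789 had 1 gene symbol, 1621 several and 12146 none. Symbols were updated through Entrez identifiers (21698) or accessions (3) of the GRCm38.p6 gene table. Genes above the array's 25th percentile on at least 3 arrays were tested with limma 3.58.1 in R 4.3.3: group-means model over all 12 arrays, 6 contrasts, eBayes, Benjamini-Hochberg adjustment over 16480 genes, two-sided. Differences are of log2 means, with moderated standard errors.

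Members and lists were chosen with earlier results of these data known. All 10 members are named. Of the 5 pathway lists, members past the threshold are named, up to 5 per list and comparison, plus 11 close partners or paralogs. The 3 most correlated genes are named for each member that passed. Marker lists also covered podocytes, collecting duct, fat, skeletal muscle and parathyroid. The fit was tested on simulated data. Alternatives changed the filter, normalisation, probe set, variance model, arrays, threshold and replicate block. Figures used matplotlib 3.10.9 in Python 3.11.15.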

Additional observations from a re-analysis of the deposited data

How the results depend on the processing

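The calls of Cyp27b1 and Casr in OVE against FVB, of Casr in OVE-D6 against D6, and of Cyp27b1, Casr and Kl in the averaged comparison held in every alternative run. Leaving out 1 array at a time gave 2.37 to 2.79 for Cyp27b1 and -0.94 to -0.81 for Casr in OVE against FVB. The number of members past the threshold then ran from 2 to 4 in OVE against FVB, 1 to 1 in OVE-D6 against D6, 0 to 2 in OVE-D6 against OVE, 0 to 0 in D6 against FVB, 3 to 4 in the averaged comparison and 0 to 1 in the interaction. The counts of 2 in OVE-D6 against OVE and of 1 in the interaction came without OVE replicate 3, where 668 and 377 of all tested genes passed.

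Same-numbered arrays showed no strong common deviation: 2 of 18 pairs correlated above 0.1 (range -0.25 to 0.12). With 3 arrays per group, this cannot show whether they share a factor beyond the number. With the replicate block, 3 members passed in OVE against FVB, 1 in OVE-D6 against D6, 0 in OVE-D6 against OVE, 0 in D6 against FVB, 4 in the averaged comparison and 0 in the interaction. Over all genes the block gave 29 calls in place of 47 in OVE-D6 against D6 and 7 in place of 38 in OVE-D6 against OVE.

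Over all genes, OVE against FVB gave 1200 calls, 440 in a fit of the 2 groups alone, 2206 at a threshold of 0.1 and 359 to 1901 with 1 array left out. OVE-D6 against D6 gave 47, with 76 (trend and robust), 87 (array weights), 112 (threshold of 0.1) and 17 to 74. OVE-D6 against OVE gave 38 (8 higher and 30 lower), with 11 higher and 23 lower after centring on medians, 9 (quantile normalisation, 3 higher and 6 lower), 91 (array weights), 0 (the 2 groups alone), 151 (threshold of 0.1) and 1 to 668. D6 against FVB gave 2, with 4 (array weights), 1 (the 2 groups alone) and 2 to 3. The averaged comparison gave 1260 (740 higher and 520 lower), with 603 higher and 747 lower after centring on medians, 2091 (threshold of 0.1) and 657 to 1916, and the interaction 0, with 0 to 377.

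Of 1170 values of the members, 46 changed sign, all for differences near 0 that did not pass. Quantile normalisation turned Slc34a1 in OVE-D6 against D6 to 0.0199, Casr in OVE-D6 against OVE to 0.0124 and Calb1 in the interaction to -0.0152. Centring arrays on their medians turned Casr in OVE-D6 against OVE to 0.0455, and array weights turned Casr in the interaction to -0.0016. With 1 array left out, Calb1 ran from -0.155 to 0.0783 in OVE against FVB, -0.1277 to 0.0513 in OVE-D6 against D6, -0.0963 to 0.0203 averaged and -0.116 to 0.1172 in the interaction. Casr ran from -0.0387 to 0.045 in D6 against FVB, -0.0802 to 0.0559 in OVE-D6 against OVE and -0.0727 to 0.0635 in the interaction. Pth1r ran from -0.0227 to 0.0871, -0.1093 to 0.093 and -0.1257 to 0.0765 in the same 3 comparisons. Slc34a1 and Slc34a3 ran from -0.0629 to 0.022 and from -0.0317 to 0.1124 in OVE-D6 against D6, Trpv5 from -0.1568 to 0.1706 in the interaction and Vdr from -0.0595 to 0.0122 averaged. The cause of these changes was not tested.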

Other observations

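Of the 9 other distal calcium genes tested, 4 were above 0 and 5 below in D6 against FVB (median -0.01), and 6 were above and 3 below in OVE-D6 against OVE (median 0.03). Slc8a1 and S100g are given here because they had unadjusted p-values under 0.05 with D6 loss, and they were chosen after their values were seen. Slc8a1, the sodium-calcium exchanger, was higher in D6 than in FVB by 0.50 ± 0.18 on the log2 scale (SE, n = 3 per group) and higher in OVE-D6 than in OVE by 0.67 ± 0.18. Its values were 10.01, 9.62 and 9.87 in OVE and 10.76, 10.43 and 10.32 in OVE-D6, without overlap. S100g, calbindin-D9k, was higher in D6 than in FVB by 0.56 ± 0.13, with 9.73, 9.73 and 10.22 in FVB and 10.41, 10.58 and 10.36 in D6. In OVE-D6 against OVE it differed by 0.03 ± 0.13. In the same comparison Atp2b1 differed by -0.29 ± 0.10 and Anxa2 by -0.53 ± 0.18. None of these passed over all genes (limma adjusted p from 0.134 to 1.0).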
